A study of Mus musculus with 21 samples.

Results

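Bcl11b encodes a zinc-finger transcription factor of the lymphoid lineages. The region studied here is its mouse locus together with the gene-poor stretch downstream of it. The members are the peaks that overlap a 1.1 Mb window of chromosome 12, from 108200000 to 109300000 on build mm9. The rule takes every peak at these positions whatever its height, but the window itself was picked with earlier results of these data known. The window held 32 of the 215239 peaks in the 4 deposited lists. Of these, 9 came from the all-lymphoid progenitor (ALP), 7 from the early innate lymphoid progenitor (EILP) and 16 from the innate lymphoid cell precursor (ILCP), all of them DNase I hypersensitive sites (DHS). None came from the list of TCF1 binding sites in EILP. The DHS of the 3 stages fell into 19 of the 102384 separate open regions of the series. The gene lies on the minus strand at about 109148000 to 109242000, so that "downstream" below means towards lower coordinates.

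The series holds 21 samples sorted from C57BL/6 bone marrow. DNase-seq, which counts the cuts that DNase I makes in accessible DNA, used 3 libraries for each of the 3 stages, with 300 cells treated for 5 minutes with 0.3 units of enzyme. CUT&RUN, in which an antibody brings a nuclease to the DNA beside a bound protein, was made from 500 EILP cells per library. It comprises 6 libraries for TCF1, the HMG-box factor encoded by Tcf7, and 4 for control IgG, technical repeats among them, while 2 others bear conflicting antibody labels and stand in no group. ALP were sorted as negative for a4b7, high for Flt3 and positive for IL-7Ra. EILP and ILCP were both sorted as positive for a4b7 and for the Tcf7 reporter, and differ in Thy1, which EILP lack and ILCP carry. ALP and ILCP carry Tcf7EGFP/+ per the genotype labels, whereas EILP carry Tcf7EGFPnull/+, an allele labelled null. The source names say WT, so the labels do not settle which allele EILP carry. By the genotype labels, stage and allele cannot be told apart in a comparison with EILP. The age of the mice is not given in the sources used here.

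Libraries were pooled before peaks were called, so no value here has a spread between mice or libraries and no difference between stages could be tested. The ALP file kept 12420429 tags, the EILP file 11236009 and the ILCP file 12681410, against 2418839 for TCF1 and 2919489 for its control. The peak lists give positions and no gene names, so the sorted cell types were not checked against marker genes. Cells were measured in bulk, and a site open in more cells cannot be told apart from a site cut more often in each cell.

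Bcl11b is best known as the factor that T cell precursors switch on as they commit to the T lineage, and it is also needed for the development and identity of group 2 innate lymphoid cells. Among innate lymphoid precursors it is known as a gene of later stages. In T cell precursors its activation is known to draw on TCF1, GATA3, RUNX1 and Notch signals and on an enhancer far downstream, in a stretch that is almost free of coding genes. In the RefSeq table of build GRCm38.p6, used here only for the order of genes, Setd3 is the next coding gene upstream. Downstream, 3 long non-coding RNA genes and 2 pseudogenes (4930465M20Rik is among the former) stand between Bcl11b and the next model called coding, Gm52008.

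The promoter of Bcl11b region held a DHS in all 3 stages, and the bases next to the gene start are shown as context for it. It is the stretch of 250 bases just before the gene start, 5′ to 3′ on the gene's own strand, from RefSeq on GRCm38.p6. The capitals mark the only match to the motifs searched.
Bcl11b promoter: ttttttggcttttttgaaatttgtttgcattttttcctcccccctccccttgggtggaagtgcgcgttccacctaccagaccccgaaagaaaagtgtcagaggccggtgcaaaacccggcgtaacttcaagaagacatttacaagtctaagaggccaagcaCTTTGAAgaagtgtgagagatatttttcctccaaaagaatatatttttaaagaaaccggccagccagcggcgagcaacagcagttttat
The match in capitals is CTTTGAA, a form of the TCF/LEF motif, at bases -89 to -83 counted from the gene start. The search covered both strands. This form stands in 4.46% of the 32851 promoters of the table at the same length, and CTTTGAA or CTTTGAT stands in 7.48%. The Bcl11b stretch holds neither RUNX form searched, TGTGGT and TGCGGT (18.6% of promoters hold either), nor AGATAA or TGATAA of the GATA motif (16.6%). Its GC content is 44.8%, against a median of 52.4% over all promoters, and it holds 9 CpG against a median of 6. The sequence is on another build than the peaks. By the rounded mm9 gene start, the DHS would lie almost wholly farther upstream than the bases shown. As that start is rounded and the builds differ, whether the DHS covers the motif match cannot be decided here.

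The locus had more open sites in ILCP than in the earlier stages. ALP had 9 DHS peaks in the window covering 1988 bp, EILP had 7 covering 1897 bp and ILCP had 16 covering 4082 bp. ILCP thus had 2 or more times as many as EILP. Among the 249 consecutive 1.1 Mb windows of the genome with 5 to 10 EILP peaks, 4.42% had at least 2 times as many ILCP peaks as EILP peaks. The window is sparse in all stages: the median over 2357 such windows was 20 peaks for ALP, 22 for EILP and 24 for ILCP. The adjoining 1.1 Mb on the side of Setd3 held 57, 60 and 67 peaks in the same order, and the adjoining 1.1 Mb on the far side 19, 18 and 21. Open regions were also far apart: the longest gaps without a DHS in any stage were 263.7 kb, from the last region of the far zone towards the gene, and 222.4 kb, which ends inside the gene. In both neighbouring windows ILCP also had the most peaks, with a smaller excess over EILP than in the Bcl11b window; the difference was not tested.

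**Figure D1:**
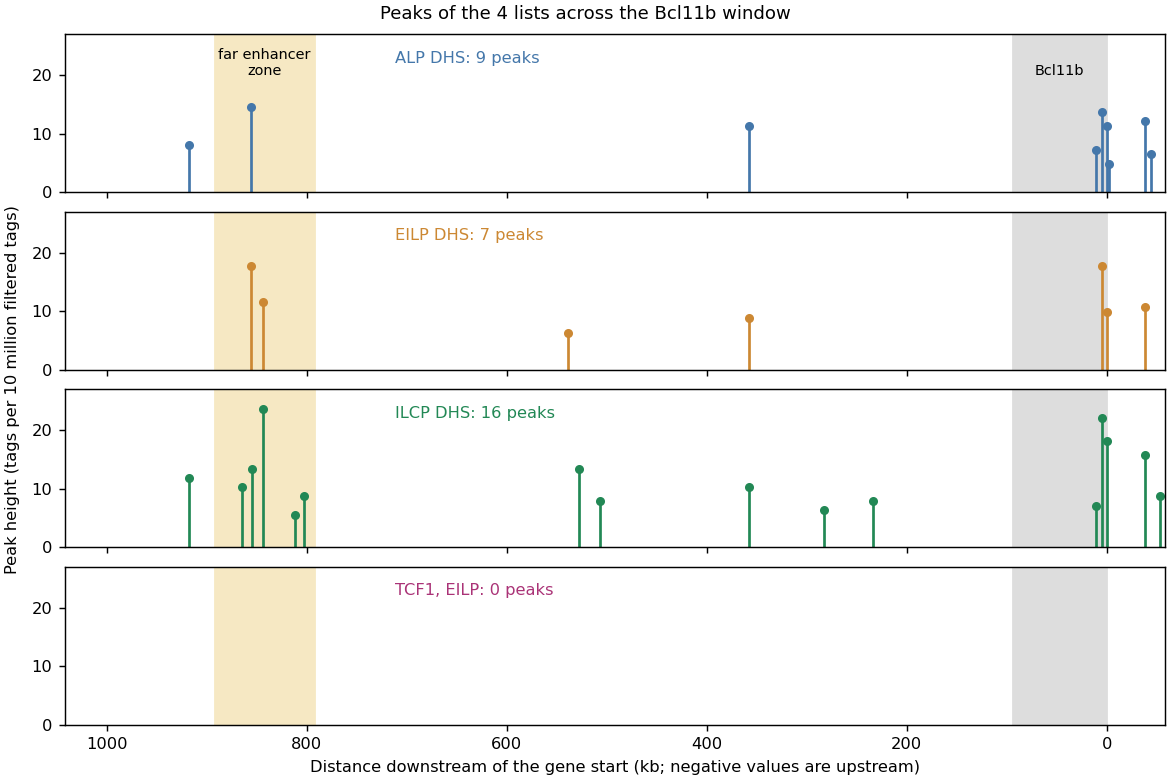
Peak height in tags per 10000000 filtered tags (vertical) against distance downstream of the gene start in kb (horizontal; negative is upstream), with a row for each list and a stem for each peak. Grey marks the gene and yellow the far enhancer zone. ILCP has 16 stems spread over the whole window, ALP 9 and EILP 7, and the TCF1 row is empty.

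Peak heights are given in tags, the number of extended tags over the summit. Peaks nearest the edges of the window show what the choice of borders takes in. The first member on the low side was a DHS of ALP (10 tags) and ILCP (15 tags) whose ALP summit lay 125 kb inside, and the nearest DHS below the border was an ILCP peak of 18 tags with its summit 651 kb outside. On the high side the last member was an ILCP peak of 11 tags, 4.95 kb inside, and the first peak beyond was shared by ALP (12 tags) and EILP (8 tags), 26.7 kb outside.

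The most frequent pattern among the 19 regions was a DHS in ILCP and in no earlier stage. Regions found in ILCP alone numbered 8, or 42.1% (23.1 to 63.7, 95% Wilson interval, counting of regions only), against 17.2% of all regions of the series. Regions open in all 3 stages numbered 5 of 19, or 26.3% (11.8 to 48.8), against 39.0%. A further 2 were open in ALP and ILCP and not in EILP, against a share of 4.09% in the series. Of the others, 2 were found in ALP alone, or 10.5% against 11.3% in the series. EILP alone had 1 (5.26% against 9.65%), and EILP with ILCP had 1 (5.26% against 9.27%). None was open in ALP and EILP only, against 9.52%. The interval of the ILCP-only share excludes the series' value, and the intervals of the other shares hold it. These intervals are not a test.

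**Figure D2:**
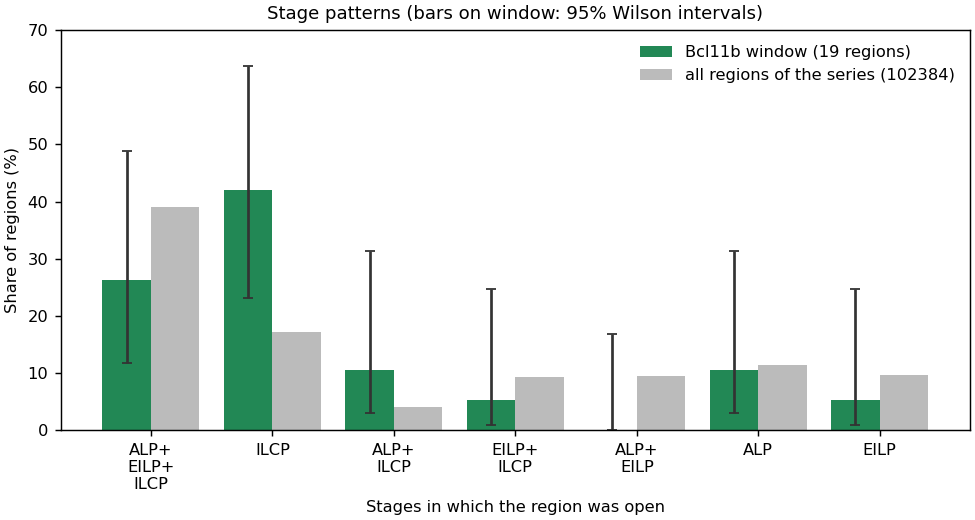
Share of regions in percent (vertical) by the stages in which they were open (horizontal), for the 19 regions of the Bcl11b window (green, with 95% Wilson intervals) and all 102384 regions of the series (grey). The ILCP-only share is 42.1% in the window and 17.2% in the series. The interval of the window excludes the series' share there and holds it for the other patterns. These intervals cover counting of regions only, in a window picked with earlier results known, and are not a test.

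More regions were gained at the step to ILCP than at the step to EILP. Gained and lost refer to listed peaks only, since signal too weak to be called is not in the lists. Of the 3 stages, EILP had the fewest filtered tags. Of the 7 regions open in EILP, 2 had no peak in ALP, which is 28.6% (8.22 to 64.1) against 28.1% in the series, and 4 of the 9 ALP regions were lost, which is 44.4% (18.9 to 73.3) against 24.1%. The intervals of both shares hold the series' value. Of the 16 regions open in ILCP, 10 had no peak in EILP, which is 62.5% (38.6 to 81.5) against 30.6% in the series. Only 1 of the 7 EILP regions was lost, or 14.3% (2.57 to 51.3) against 28.4%. Among the 10 gained at ILCP, 2 had been open in ALP and 8 had not. With only the stronger part of each list, split at its median fold enrichment, 6 regions were gained at this step and none was lost. These 6 include the site 358.0 kb downstream, which has a listed EILP peak. That peak, with a fold of 6.75 against the EILP median of 6.87, was cut by the split.

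The gene itself and its promoter carried few DHS, close to the 5′ end. At the promoter, a region at 109242228 to 109242500 was open in every stage, with its ILCP summit at -369 bp from the rounded gene start, a negative value being upstream. Its height in tags was 14 for ALP, 11 for EILP and 23 for ILCP. EILP was lowest and ILCP highest, with exact Poisson 95% intervals of 7.65 to 23.5, 5.49 to 19.7 and 14.6 to 34.5 that overlap. The ILCP height per filtered tag was 1.85 times that of EILP (0.868 to 4.21).

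In the first part of the gene body, 4.8 kb downstream of the gene start, lay the EILP peak with the highest fold enrichment over local background in the window. This region, at 109237030 to 109237264, had a height of 17 tags at the ALP stage, 20 at EILP and 28 at ILCP, with Poisson intervals of 9.90 to 27.2, 12.2 to 30.9 and 18.6 to 40.5 that overlap. In the authors' fold enrichment the EILP peak, at 13.1, stood above 91.0% of its list. The summits of the 3 stages lay within 6 bp of one another. The next region into the gene, at 109231368 to 109231567, had 9 tags in ALP and 9 in ILCP and no peak in EILP. No other DHS was listed over the remaining gene body in any stage.

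The far enhancer zone, 50 kb to each side of 108400000, went from 1 DHS in ALP to 2 in EILP and 5 in ILCP. The region closest to the named enhancer point was at 108398260 to 108398728, which is 843.4 kb downstream of the gene start, with its ILCP summit at -1441 bp from the point. It had no peak in ALP, 13 tags in EILP and 30 in ILCP. This was the tallest DHS of the window in ILCP, and the only region of the window gained at EILP and kept. The EILP and ILCP summits were 7 bp apart. Per filtered tag the ILCP height was 2.04 times that of EILP, with an exact 95% interval of 1.03 to 4.27 that covers counting error only. Over the 9487 regions of the series open in EILP and ILCP but not ALP, 4.99% had an ILCP fold enrichment as high as its 11.5.

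Another site of this zone had no such difference in height. The region at 108386661 to 108387090, 855.2 kb downstream, was open in all 3 stages with 18 tags (ALP), 20 tags (EILP) and 17 tags (ILCP). The 3 heights lay within 3 tags of one another, and the ILCP to EILP ratio per filtered tag was 0.753 (0.371 to 1.51). It was the tallest DHS of the window in ALP, and shared the top height with the region 4.8 kb into the gene in EILP. The summits of its stages spread over 103 bp, more than in any other region of the window. The ILCP-only regions of the zone were at 108377258 to 108377536 with 13 tags, at 108430689 to 108430843 with 7 tags and at 108439235 to 108439394 with 11 tags. They flank the 2 stronger sites on both sides.

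Between the far zone and the gene, 698 kb held 6 regions, of which 4 were found in ILCP alone. The strongest was at 108714676 to 108715008, 527.2 kb downstream, with 17 tags and a fold enrichment of 10.0. In the series 1.74% of ILCP-only regions had a fold as high. It was picked as the strongest of the 8 in the window, so its share of 1 in 8 was fixed in advance and cannot be set against that of the series. The other ILCP-only regions of the desert had 10 tags at 108735216 to 108735388, 8 tags at 108959263 to 108959387 and 10 tags at 109008790 to 109009009. All 4 lay apart from each other, by 20.2 kb at the least. One region, at 108883660 to 108884107, was open in every stage, with heights of 14 (ALP), 10 (EILP) and 13 (ILCP) tags. The only EILP-only region of the window was at 108703093 to 108703204, with 7 tags against a least listed height of 5 in that list. It lay 11.5 kb from the strongest ILCP-only region of the desert and did not overlap it.

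Upstream of the gene, between the promoter and the border, a region 38.0 kb from the gene start (109279869 to 109280151) was open in all stages. Its heights were 15 (ALP), 12 (EILP) and 20 (ILCP) tags, with summits within 4 bp. The 2 ALP-only regions of the window were both on this side, at 109244543 to 109244694 with 6 tags and at 109286851 to 109287108 with 8 tags. Both are low: the ALP list begins at 5 tags and has a median of 14. An ILCP-only region at 109294974 to 109295187 had 11 tags. At the opposite end of the window, beyond the far zone, the region at 108324537 to 108324751 had 10 tags in ALP, none listed in EILP and 15 in ILCP.

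**Figure D3:**
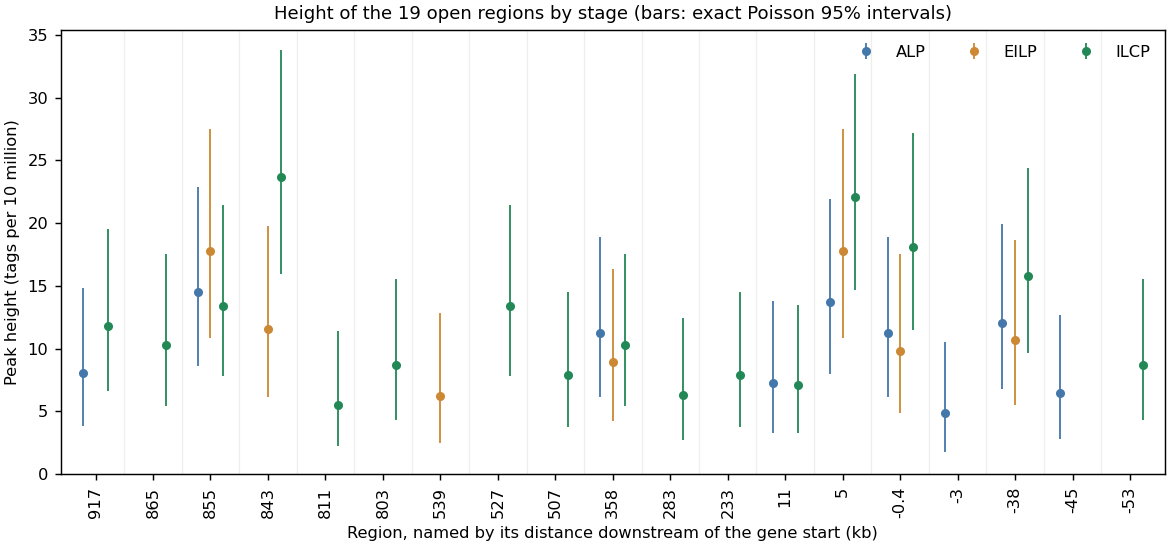
Height of the 19 regions in tags per 10000000 filtered tags (vertical) by stage, each region named by its distance downstream of the gene start in kb (horizontal). Points are the heights and bars exact Poisson 95% intervals; a missing point means no listed peak. ILCP stands highest at 843 kb, at 5 kb, at the promoter (-0.4) and at -38 kb. It is below ALP and EILP at 855 kb, and slightly below ALP at 358 and 10.6 kb.

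The peaks of the window were of ordinary height for their lists. The ALP median was 14 tags, the EILP median 12 and the ILCP median 13, against 14, 13 and 13 over the whole lists. The 8 ILCP-only regions had 7 to 17 tags with a median of 10.5, against a median of 9 over the 17590 ILCP-only regions of the series. Widths ran from 101 to 469 bp over all 32 peaks, the widest being the EILP peak at the far enhancer. The far enhancer and the sites 855.2 and 358.0 kb downstream had the widest peaks.

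Where a region was open in both stages of a step, heights could be set side by side. From EILP to ILCP, 5 of the 6 shared regions had a height ratio per filtered tag above the series' median of 0.960, with a median over the 6 of 1.36 and a range from 0.753 to 2.04. A ratio of 1.5 or more was reached by 2 of the 6, the far enhancer and the promoter, against 10.0% of the 49369 shared regions of the series. None of the 6 was lower in ILCP by that factor, against 15.9%. From ALP to EILP the 5 shared regions ran from 0.790 to 1.30 with a median of 0.884, against 1.11 in the series. Summed over the 5 regions open in all stages, height per 10000000 filtered tags was 62.8 for ALP, 65.0 for EILP and 79.6 for ILCP. None of the 5 ratios of EILP to ALP reached a factor of 1.5 in either direction (0 to 43.4), against 16.4% higher and 8.04% lower in the series.

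**Figure D4:**
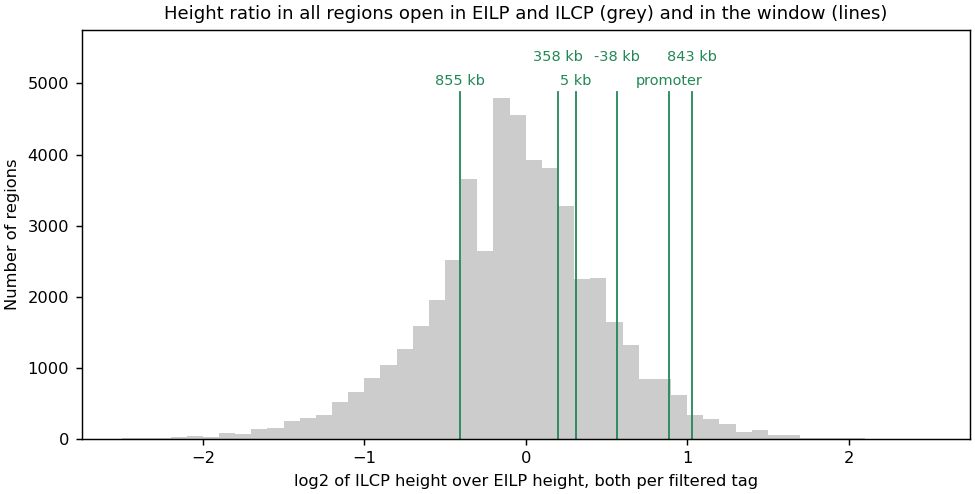
Number of regions (vertical) by the log2 of ILCP height over EILP height, both per filtered tag (horizontal), for all 49369 regions open in both stages (grey) and the 6 of the Bcl11b window (green lines, named by distance from the gene start). The far enhancer (843 kb, ratio 2.04) and the promoter (1.85) lie in the right tail and the 855 kb region (0.753) left of the centre.

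The deposited columns also give the number of tags in the 10 kb around each DHS summit, which the peak caller used as local background. It follows from the height and the fold enrichment, and came out whole to within 0.05 tags for every DHS peak whose surroundings exceed the genome-wide level. Where the surroundings do not exceed that level, only an upper bound is known. Around the far enhancer summit there were 77 tags in EILP and 169 in ILCP, a ratio per filtered tag of 1.94 (1.48 to 2.58). Scaled to 10000000 filtered tags, the counts were 68.5 (54.1 to 85.7) and 133 (114 to 155), and these intervals do not overlap. Around the site 855.2 kb downstream the counts were 113 (ALP), 131 (EILP) and 145 (ILCP), and the ILCP to EILP ratio was 0.981 (0.769 to 1.25). The interval of this ratio lies below that of the far enhancer, which stands 11.2 kb away.

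At the 5′ end of the gene ILCP again had the highest count. Around the site 4.8 kb into the gene there were 82 tags in ALP, at most 60 in EILP and 157 in ILCP, and the ILCP count was 2.32 times the EILP upper bound per filtered tag, with a lower 95% limit of 1.71. Around the promoter summit there were 88, at most 60 and 143, and the ILCP count was 2.11 times the EILP bound, with a lower limit of 1.55. Against ALP the ILCP ratios were 1.88 (1.43 to 2.48) and 1.59 (lower bound 1.21). The 10 kb of these 2 sites overlap, so they are not independent counts, and each count includes the cuts of the peaks inside it. EILP was here at or under the genome-wide level of its own file. A ratio of ILCP to EILP of 1.5 or more was found at 3 of the 6 shared regions, against 2.19% of shared regions in the series. At the region 38.0 kb upstream no stage exceeded the genome-wide level, and at the desert site 358 kb downstream the counts were 72 (ALP), 63 (EILP) and 96 (ILCP), with an ILCP to EILP ratio of 1.35 (0.972 to 1.89).

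**Figure D5:**
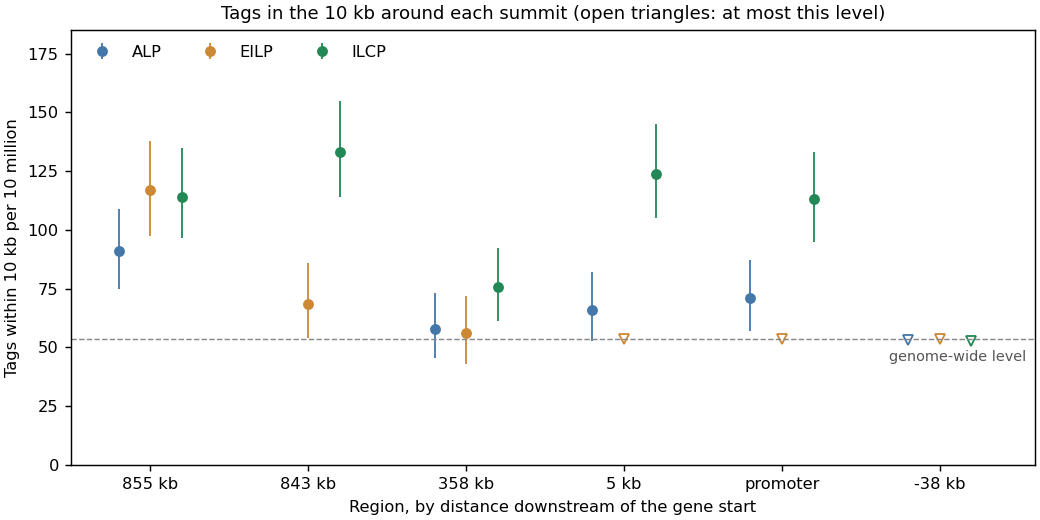
Tags in the 10 kb around the summit, per 10000000 filtered tags (vertical), for the 6 regions shared by EILP and ILCP, named by distance downstream of the gene start (horizontal). Filled points are counts with exact Poisson 95% intervals, open triangles upper bounds, and the dashed line the genome-wide level. The ILCP interval lies above that of EILP at 843 kb and above the EILP bound at 5 kb and the promoter. The ILCP point is higher at 358 kb with overlapping intervals and about level at 855 kb, and at -38 kb only upper bounds are known.

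No TCF1 peak of EILP lay in the window, neither at the promoter nor at the far enhancer. The share of all regions of the series with a TCF1 peak is 4.16%, and 0 of 19 here has a 95% Wilson upper bound of 16.8%. The nearest TCF1 peak on the upstream side was at 109341463 to 109341562, 41.5 kb beyond the border and 99.5 kb from the gene start, with 4 tags, and it overlapped an EILP DHS. The nearest on the other side was at 107270414 to 107270579, also of 4 tags. The stretch between these peaks is 2.07 Mb. The median distance between neighbouring TCF1 peaks was 84.7 kb, and 4.26% of 6659 such distances were as long. A window of 1.1 Mb without a TCF1 peak must lie in a stretch longer than itself, so this length adds little to the count of 0. Of all 2357 windows of 1.1 Mb, 40.3% held no TCF1 peak. Windows with as few DHS often lack TCF1 peaks too. Of the 131 windows of 1.1 Mb whose DHS peaks over the 3 lists came within 5 of the 32 here, 60.3% held none. The TCF1 list begins at 3 tags and rests on fewer tags than the DHS lists, so weaker binding was not detectable at this depth. The pooled control of these calls also includes the library number of the 2 samples titled TCF1 but described under the IgG track, and its part in the absence of peaks was not tested.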

How the data were processed

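Each list comes from MACS (2.1.1.20160309), run by the authors per the file headers with a q limit of 0.05, 1 tag per position and 100 bp fragments. DHS were called without a control against a 10 kb background. TCF1 was called against the pooled IgG file with backgrounds of 1 and 10 kb. That control also names the library of the 2 samples with conflicting labels. Coordinates are on mm9, which the submitters' processing notes name; the aligner is not given in the sources used here. The deposited signal is the pileup, that is the extended tags at the summit, called height here. The deposited fold enrichment is the ratio of pileup plus 1 to local background plus 1, and the lists also hold the authors' −log10 of q.

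From these, DHS sharing 1 bp were merged across stages with pandas 2.3.3, and a stage was open where the region held its peak. Zones are the rule's gene, its far enhancer point with 50 kb on each side, the desert between and the flanks; the promoter is within 2 kb of the gene start. Local tags per 10 kb were solved from height and fold. Heights were scaled per 10000000 filtered tags. Intervals are 95% Wilson, exact Poisson or exact conditional, and cover counting error only, since tags carry no molecular identifiers. Fold enrichment was used within 1 list only. No test was run, as each list pools its libraries. All regions of the design rule are named: those at the promoter and in the far zone, and the strongest of each list and pattern; the remaining ones are given too. The window and its lists were chosen with earlier results of these data known. Merging was tested on simulated data. Gene marker lists needed an mm9 annotation and were not run.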

Additional observations from a re-analysis of the deposited data

How the results depend on the processing

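No paired analysis was possible because each list pools its libraries, and no replicate could be left out. Of 98 recomputed counts, 81 stayed within 1.5 times, but under the split at the median fold only 8 of 18 did. All 11 height ratios kept within their intervals whether tags were scaled or not. Scaling multiplies every ratio of a step by the same factor, which is small beside these intervals, so this says little about robustness. With only peaks at or above the median fold of their list, the window had 11 merged regions. From ALP to EILP 1 was gained and 1 lost, and from EILP to ILCP 6 were gained and 0 lost. ALP then had 5 peaks in the window, ALP and ILCP 1 each in the gene, and the desert 0 for EILP and 2 for ILCP. The region lost under this split was the site 358.0 kb downstream, which is also among the 6 gained. It is open in every stage in the full lists, and the split cut its EILP peak. The regions lost from ALP to EILP in the full lists had ALP folds of 3.78 to 6.61, below the ALP median of 6.95. With 25 kb on each side, the far zone held 3 ILCP peaks, and with 100 kb 2 ALP peaks. With 100 kb taken off each end, which removes the 5′ end of the gene, the window held 3 ALP and 4 EILP peaks and the gene 0 in every stage. Equal list lengths, a −log10 q of 2 or more and the merging and absence rules moved no count past 1.5 times. The q limit could not do so, since the lowest −log10 q in the window was 2.18. Regions lay at least 2.0 kb apart, so merging within 200 bp and the 500 bp absence rule could not either. The ratio threshold of 1.5, the local tags and the comparison windows were chosen after seeing the data. Heights of 6 to 30 tags limit all stage contrasts: only the far enhancer's height interval from EILP to ILCP excludes 1. That ratio is the highest of the 6 of its step, and no interval is adjusted for the number of ratios given.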
